A study of Mus musculus with 4 samples.

Results

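Genes for entry into mitosis, the spindle and the kinetochore were followed in RNA-Seq libraries of sorted hematopoietic stem cells (HSCs) with and without *Id2*, which encodes the helix-loop-helix inhibitor ID2. The genes were a list of 47 mitotic cyclins, kinases, checkpoint, kinetochore, spindle and cytokinesis genes, the Kif-named kinesins left out, and a gene was taken when its symbol stood in a row name of the deposited table, which lists 19354 genes. By symbol 46 were found, and *Sgo1* was found by its Ensembl identifier under the older symbol *Sgol1*. All 47 had a mean over the libraries of at least 1 CPM (read count scaled to a common library total) and were therefore among the 15895 genes tested.

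Both groups carried *Mx1-Cre*, a Cre recombinase under an interferon-inducible promoter that is active in blood cells and in other tissues, and in both groups bone marrow was taken 2 weeks after polyinosinic:polycytidylic acid (pIpC), which induces interferon. The Id2Δ/Δ group came from *Mx1-Cre* Id2Fl/Fl mice, in which pIpC thus deletes the floxed gene, and the Id2+/+ group from *Mx1-Cre* Id2+/+ mice. HSCs were sorted as Lin- Sca1+ c-Kit+ FLT3- CD48- CD150+ cells from mice 8 to 16 weeks old and pooled, from 14 Id2+/+ and 15 Id2Fl/Fl mice over 2 experiments. Each group has 2 libraries, here replicates 1 and 2 in that order throughout. The labels do not say which mice or which experiment a library holds, so p-values measure only the spread between these libraries.

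A cell enters mitosis when CDK1 bound to cyclin A or B is freed of inhibitory phosphates by CDC25 phosphatases. Polo and Aurora kinases build the spindle, kinetochores join chromosomes to its microtubules, and the spindle assembly checkpoint holds back the anaphase-promoting complex (APC/C) until all are attached. The APC/C then marks securin and cyclin B for destruction, separase cuts cohesin and the cell divides. Most HSCs of adult bone marrow are in G0, and many of these transcripts are made mainly in G2 and M, when the MuvB complex with B-MYB and FOXM1 acts at their promoters. There it binds the cell cycle genes homology region (CHR, TTTGAA in its common form), often with NF-Y at CCAAT boxes nearby.

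The promoters of the members were read for these letters, which the list did not use. RefSeq promoters on GRCm38.p6, from 250 bases before to 50 after a start site, were on hand for 39 of the 47 genes, 42 promoters in all, and not for *Aurkb*, *Ccna2*, *Cdc25c*, *Dlgap5*, *Foxm1*, *Incenp*, *Spc24* and *Tpx2*. TTTGAA or its reverse complement TTCAAA was present in 29 of the 42 (69.0%), against 17.9% of all 32851 promoters of the same length and 12.3% of 13084 promoters of tested genes. CCAAT or its reverse complement ATTGG was present in 33 (78.6%), against 37.4% of all promoters and 37.6% of those of tested genes. Both stood together in 27 (64.3%), against 6.95% of all promoters and 4.95% of those of tested genes. CANNTG, the E-box core bound by E proteins, the partners that ID proteins inhibit, was present in 28 (66.7%), against 72.3% of all promoters and 64.4% of those of tested genes. Shown here are 160 bases, 130 before and 30 after the start site, for *Ccnb1*, *Ccnb2* and *Cdk1* and for the 3 of the genes with the smallest p-values below that have 1 promoter in the table. Each is written 5′ to 3′ on the gene's strand, and capitals mark TTTGAA and CCAAT boxes on either strand.
Ccnb1 (chr13:100786457-100786616, minus strand): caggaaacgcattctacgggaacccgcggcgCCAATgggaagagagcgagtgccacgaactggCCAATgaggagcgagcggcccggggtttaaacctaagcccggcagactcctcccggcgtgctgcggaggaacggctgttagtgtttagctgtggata
Ccnb2 (chr9:70421525-70421684, minus strand): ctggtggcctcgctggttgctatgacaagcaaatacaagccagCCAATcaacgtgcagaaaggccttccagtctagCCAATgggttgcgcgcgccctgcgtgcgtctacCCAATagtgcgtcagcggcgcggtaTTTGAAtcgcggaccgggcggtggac
Cdk1 (chr10:69352883-69353042, minus strand): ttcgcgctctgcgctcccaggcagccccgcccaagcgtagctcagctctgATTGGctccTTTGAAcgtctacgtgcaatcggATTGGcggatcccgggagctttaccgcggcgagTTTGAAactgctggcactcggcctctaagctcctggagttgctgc
Nusap1 (chr2:119618168-119618327, plus strand): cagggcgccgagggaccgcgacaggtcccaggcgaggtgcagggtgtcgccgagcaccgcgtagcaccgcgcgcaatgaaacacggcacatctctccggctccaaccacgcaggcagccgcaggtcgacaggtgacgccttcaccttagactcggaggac
Ube2c (chr2:164769799-164769958, plus strand): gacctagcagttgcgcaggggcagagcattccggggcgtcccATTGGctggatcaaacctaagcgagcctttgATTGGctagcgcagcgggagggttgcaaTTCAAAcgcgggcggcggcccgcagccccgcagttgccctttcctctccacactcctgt
Cenpf (chr1:189688057-189688216, minus strand): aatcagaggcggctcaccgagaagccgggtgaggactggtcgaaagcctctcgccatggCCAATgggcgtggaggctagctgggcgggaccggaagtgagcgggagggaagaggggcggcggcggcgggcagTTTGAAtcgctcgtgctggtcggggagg
*Ccnb2* has 3 CCAAT boxes before a TTTGAA that begins 5 bases past the start site, *Cdk1* has 2 of each in this window, and *Nusap1* has neither. A match is a string of letters in a window and was not tested as a binding site.

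The libraries were read first for identity. The deposited values are log2 CPM, quantile-normalized by the authors, and the depth was 14200000 to 18800000 reads. For *Id2* itself 93 and 98 reads were recovered from Id2+/+ HSCs and 0 from either Id2Δ/Δ library, where a count of 0 allows up to 3 reads. Of the sort markers, *Kit*, *Ly6a* (Sca1) and *Slamf1* (CD150) were at 5.70 log2 CPM or more in every library, while *Cd48* lay between 1.40 and 3.04 and *Flt3*, also gated out, between 5.47 and 5.63. They were not all level between genotypes. *Kit* was lower in both Id2Δ/Δ libraries, at 11.08 and 10.93 in Id2+/+ against 10.19 and 10.55. *Slamf1* was higher in both, at 5.78 and 5.70 against 6.08 and 5.92, and for *Ly6a* the libraries overlapped. The Id2+/+ libraries had a Pearson's r of 0.972 and the Id2Δ/Δ libraries one of 0.942, across genes that are no replicates of each other.

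Most of the mitotic genes were higher in Id2Δ/Δ HSCs. Of the 47, 42 had a log2 fold change (Id2Δ/Δ minus Id2+/+) above 0 (89.4%), against 51.7% of all genes tested, and their median was 0.30 (quartiles 0.18 and 0.47), against 0.01 over all genes. In 29 of the 47 (61.7%) both Id2Δ/Δ libraries lay above both Id2+/+ libraries, against 19.0% of all genes, and in 0 both lay below, against 15.8%. The changes were small, from -0.12 for *Ect2* to 0.80 for *Ube2c*, a fold of 0.919 to 1.74. In pooled cells a larger share of cells in mitosis and more of these transcripts per cell cannot be told apart.

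The genes were tested by genotype alone with limma, its variance prior following the mean level, with Benjamini-Hochberg adjustment over all 15895 genes. At an adjusted p under 0.05 limma called 0 members and 0 genes in all (0%), with 0.910 the lowest adjusted p-value. Without adjustment, p was under 0.05 for 12 members, all higher (25.5% of 47), against 1.72% of all genes higher and 2.95% lower, 4.67% in all. That count was 3 without Id2+/+ replicate 1 and 5 without the trend on mean level, whereas leaving out each library in turn kept the median between 0.24 and 0.33. The share of all genes at an unadjusted p under 0.05 was not counted in those other fits. For a single gene, the smallest two-sided p that exact permutation of these 4 libraries allows is 0.333.

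**Figure D1:**
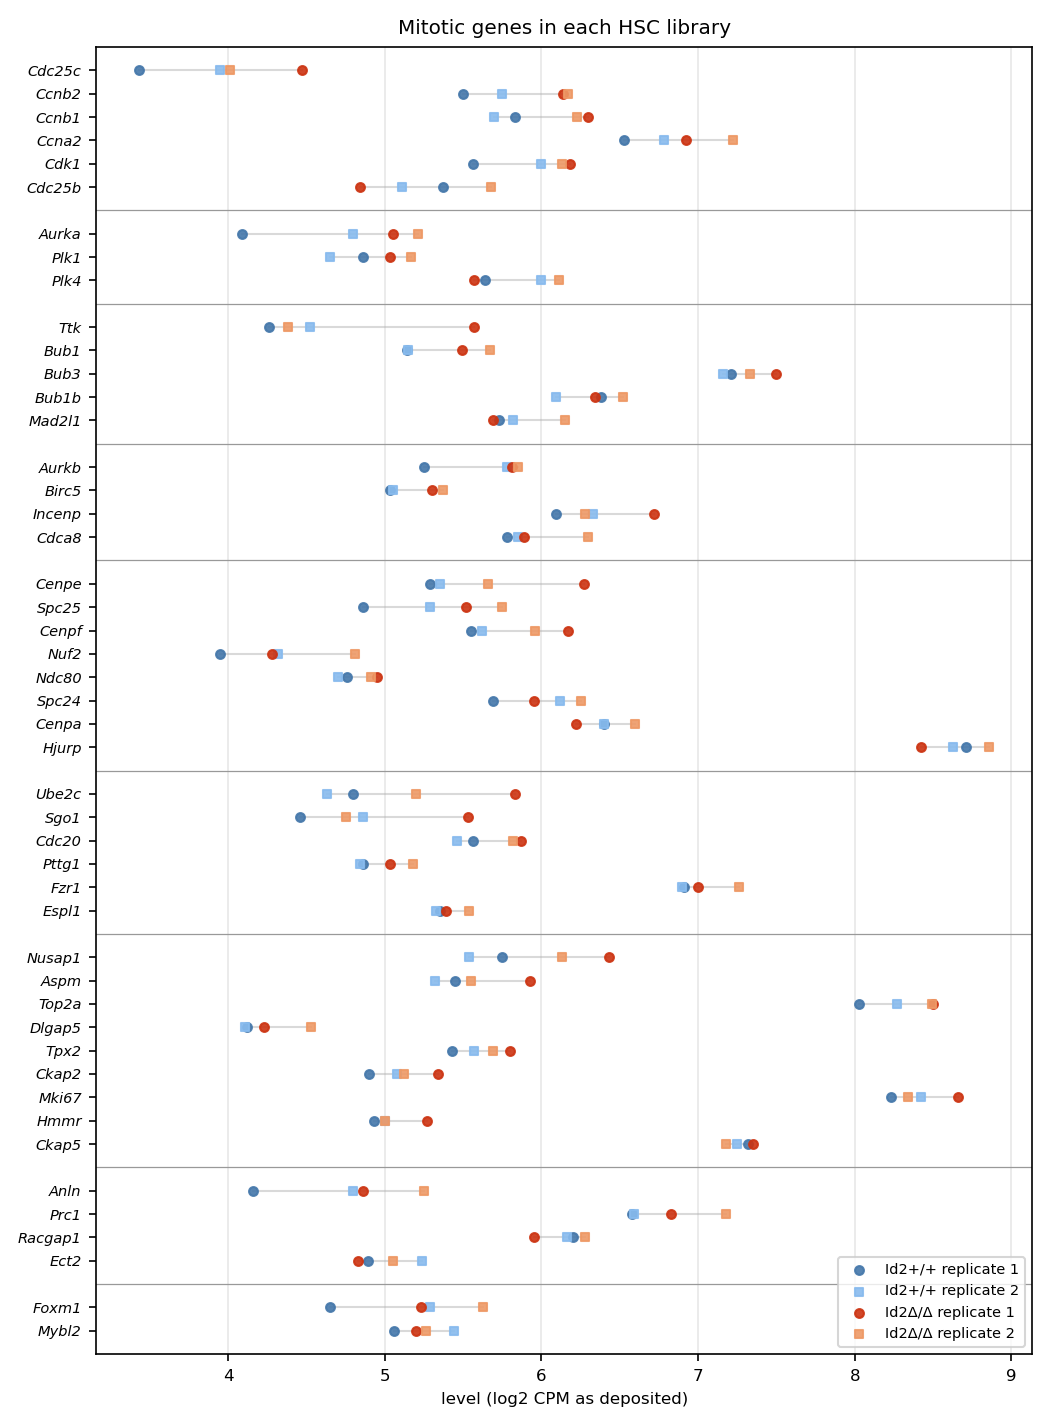
Level of each of the 47 mitotic genes (x axis, log2 CPM as deposited) in the 4 HSC libraries, 1 row per gene, with lines between rows separating the roles in the order of the text. Blue symbols are the Id2+/+ and red and orange symbols the Id2Δ/Δ libraries, and in 29 rows both of the latter lie to the right of both of the former.

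The genes that open mitosis came first. All 6 were above 0, against 51.7% of all genes tested, with a median log2 fold change of 0.46. In 5 the libraries did not overlap, against 19.0% of all genes on the higher side. Neither this group nor those below were tested against these shares. *Ccnb1*, which encodes cyclin B1 (ENSMUSG00000041431.16, chromosome 13 of GRCm38 from 100778650 to 100786570), was at 5.83 and 5.70 log2 CPM in Id2+/+ and at 6.30 and 6.23 in Id2Δ/Δ HSCs. Both Id2Δ/Δ libraries stood clear of both controls, by more than the replicates differed, and the log2 fold change of 0.50 ± 0.14 (standard error, n = 2 per genotype) had a 95% interval of 0.16 to 0.83. *Ccnb2*, for cyclin B2 (chromosome 9 from 70407692 to 70421547), was at 5.50 and 5.75 against 6.14 and 6.17, a log2 fold change of 0.53 ± 0.16. A pseudogene, *Ccnb2-ps*, can share its reads and had 55 and 50 reads against 95 and 55.
Cyclin A2, which acts from S phase into early mitosis, followed the B cyclins. *Ccna2* was at 6.53 and 6.78 log2 CPM in Id2+/+ and at 6.92 and 7.22 in Id2Δ/Δ HSCs, a log2 fold change of 0.42 ± 0.16 that was 0.27 without Id2Δ/Δ replicate 2. *Exosc9*, an RNA exosome gene that overlaps it on the other strand, was at 5.77 and 6.0 against 6.50 and 6.16, so the values of the pair are uncertain where strand was not used in counting. For *Cdk1*, their kinase partner, 5.56 and 6.0 stood against 6.18 and 6.13, and the log2 fold change of 0.37 ± 0.18 was 0.15 without Id2+/+ replicate 1, the lowest library.
The CDC25 phosphatases, which activate CDK1, differed from each other. *Cdc25c* was at 3.43 and 3.95 log2 CPM against 4.47 and 4.01, so that Id2+/+ replicate 2 and Id2Δ/Δ replicate 2 nearly met, and its log2 fold change of 0.54 ± 0.28 was 0.28 without Id2+/+ replicate 1 and 0.32 without Id2Δ/Δ replicate 1. *Cdc25b* was far apart between the Id2Δ/Δ libraries, at 4.84 and 5.68, on either side of 5.37 and 5.11 in Id2+/+, with a log2 fold change of 0.02 ± 0.28. At 156 reads in Id2+/+ replicate 1, *Cdc25c* was the least covered value of the whole list, for which the highest was about 8733 reads.

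Among the kinases of the spindle poles, *Aurka* (Aurora A) had the second largest difference of the 47. It was at 4.09 and 4.80 log2 CPM in Id2+/+ and at 5.05 and 5.21 in Id2Δ/Δ HSCs, a log2 fold change of 0.69 ± 0.26 (fold of 1.61). The controls themselves were 0.71 apart, and without Id2+/+ replicate 1 the value was 0.33. *Plk1*, the polo kinase of mitotic entry and exit, had 0.34 ± 0.18 without overlap, while *Plk4*, which drives centriole duplication, had 0.02 ± 0.22 with overlapping libraries.

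For the spindle assembly checkpoint all 5 genes were above 0 (median 0.23), against 51.7% of all genes. In 2 (40.0%) the libraries did not overlap, against 19.0% of all genes on the higher side. *Bub1*, the kinase that brings checkpoint proteins to kinetochores, gave replicates that were close within each genotype, 5.14 and 5.15 log2 CPM in Id2+/+ against 5.49 and 5.67 in Id2Δ/Δ HSCs, and a log2 fold change of 0.44 ± 0.16. Its binding partner *Bub3* had 0.23 ± 0.12 without overlap. The checkpoint genes *Bub1b* (BUBR1) and *Mad2l1* (MAD2) had 0.19 and 0.14 with overlapping libraries. *Ttk*, for the kinase MPS1 at the top of this pathway, was at 4.26 and 4.52 in Id2+/+ and at 5.57 and 4.38 in Id2Δ/Δ HSCs. Its value of 0.58 ± 0.37 thus rested on Id2Δ/Δ replicate 1, without which it was -0.01.

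The genes of the chromosomal passenger complex had differences of similar size, each below 2 standard errors. *Aurkb* (Aurora B), *Birc5* (survivin), *Incenp* and *Cdca8* (borealin) had log2 fold changes of 0.31 ± 0.20, 0.30 ± 0.16, 0.29 ± 0.18 and 0.28 ± 0.18. *Aurkb*, the kinase of the complex, was at 5.25 and 5.78 log2 CPM against 5.81 and 5.85, where Id2+/+ replicate 2 fell just short of the Id2Δ/Δ libraries, and without Id2+/+ replicate 1 its value was 0.05. *Incenp* was at 0.07 without Id2Δ/Δ replicate 1, and *Cdca8* at 0.07 without Id2Δ/Δ replicate 2. The libraries overlapped for *Incenp* alone of these 4.

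Of the 8 centromere and kinetochore genes 7 were above 0 (median 0.31), and in 4 the libraries did not overlap. *Cenpe*, for a motor protein of the kinesin family that carries chromosomes to the spindle equator, was at 5.29 and 5.35 log2 CPM in Id2+/+ and at 6.27 and 5.66 in Id2Δ/Δ HSCs, a log2 fold change of 0.65 ± 0.22. Both Id2Δ/Δ libraries were higher, replicate 1 by more, and without it the value was 0.34. *Cenpf*, for a large protein of the outer kinetochore (chromosome 1 from 189640606 to 189688086), was at 5.55 and 5.62 against 6.17 and 5.96, a log2 fold change of 0.48 ± 0.15.
The NDC80 complex, which holds the microtubule, is built of 4 subunits. *Spc25* was at 4.86 and 5.29 log2 CPM against 5.52 and 5.75, a log2 fold change of 0.56 ± 0.20 that was 0.34 without Id2+/+ replicate 1. The others, *Nuf2*, *Ndc80* and *Spc24* had 0.41, 0.20 and 0.20, with overlap for *Nuf2*, at 0.15 without Id2Δ/Δ replicate 2, and for *Spc24*, at -0.02 without Id2+/+ replicate 1. For the centromeric histone CENP-A and its loader the genotypes were level on average. *Cenpa* was at 6.40 in both Id2+/+ libraries and at 6.22 and 6.60 in Id2Δ/Δ HSCs, a log2 fold change of 0.01 ± 0.16. *Hjurp*, its chaperone, was at 8.71 and 8.63 against 8.42 and 8.86, a log2 fold change of -0.03 ± 0.15. For both, the Id2Δ/Δ libraries lay on either side of the controls. Scaled to the longest annotated transcript, *Hjurp* had the highest level of the 47, 83.2 CPM per kb, followed by *Top2a* at 61.9, and *Dlgap5* had the lowest at 4.33.

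The genes of mitotic exit and sister chromatid cohesion were all 6 above 0 (median 0.29), against 51.7% of all genes. Of them 5 (83.3%) were without overlap, against 19.0% of all genes on the higher side. *Ube2c*, the E2 enzyme that supplies ubiquitin to the APC/C (ENSMUSG00000001403.13, chromosome 2 from 164769898 to 164778822), had the largest difference of the 47, with 4.80 and 4.63 log2 CPM in Id2+/+ and 5.83 and 5.20 in Id2Δ/Δ HSCs. Both Id2Δ/Δ libraries were above both controls, and they were further from each other than replicate 2 was from the controls. The log2 fold change of 0.80 ± 0.24 (95% interval 0.24 to 1.35, fold of 1.74) was 0.48 without Id2Δ/Δ replicate 1. The APC/C activators *Cdc20*, for mitosis, and *Fzr1* (CDH1), for late mitosis and G1, had 0.33 ± 0.15 and 0.22 ± 0.14. Securin (*Pttg1*), which restrains separase, had 0.26 ± 0.17, and separase (*Espl1*) 0.12 ± 0.16, all 4 without overlap. Genes on the other strand overlap both activators. *Elovl1* at *Cdc20* was at 6.81 and 6.83 log2 CPM against 7.0 and 6.93, and *Mfsd12* at *Fzr1* at 6.83 and 6.88 against 6.55 and 6.87. *Sgo1*, which protects centromeric cohesin, was at 4.46 and 4.86 against 5.53 and 4.75, and its 0.48 ± 0.29 was 0.09 without Id2Δ/Δ replicate 1.

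Of 9 genes of the spindle and of mitotic chromosomes, 8 were above 0 (88.9%, median 0.25), against 51.7% of all genes. In 6 (66.7%) the libraries did not overlap, against 19.0% of all genes on the higher side. *Nusap1*, which bundles spindle microtubules (ENSMUSG00000027306.15, chromosome 2 from 119618298 to 119651244), had the smallest unadjusted p-value of the list, 0.00651 from limma, with an adjusted p-value of 0.910. It was at 5.75 and 5.54 log2 CPM in Id2+/+ and at 6.43 and 6.13 in Id2Δ/Δ HSCs, a log2 fold change of 0.64 ± 0.17 that stayed between 0.48 and 0.79 over the leave-one-out fits. *Oip5*, which overlaps it on the other strand, was at 4.16 and 4.25 against 4.14 and 3.93. *Top2a*, the topoisomerase that untangles sister chromatids, was at 8.03 and 8.27 against 8.50 and 8.49, a log2 fold change of 0.34 ± 0.12 that was 0.22 without Id2+/+ replicate 1.
*Mki67*, which encodes the proliferation marker Ki-67, did not separate the genotypes in the deposited values. It was at 8.23 and 8.42 log2 CPM in Id2+/+ and at 8.66 and 8.34 in Id2Δ/Δ HSCs. Id2+/+ replicate 2 thus lay above Id2Δ/Δ replicate 2. The log2 fold change was 0.18 ± 0.14, and 0.02 without Id2Δ/Δ replicate 1. With each library corrected for transcript length, the log2 fold change of *Mki67* was 0.33, against a median of 0.32 over all the mitotic genes listed. *Ckap5*, a microtubule polymerase, was at 7.32 and 7.25 against 7.35 and 7.18, a log2 fold change of -0.02 ± 0.12 with overlapping libraries. The spindle genes *Aspm*, *Dlgap5*, *Tpx2*, *Ckap2* and *Hmmr* had 0.35, 0.26, 0.25, 0.24 and 0.17, and of these *Hmmr* overlapped.

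The cytokinesis genes were split. *Prc1*, which bundles the central spindle, was at 6.58 and 6.59 log2 CPM in Id2+/+ and at 6.83 and 7.18 in Id2Δ/Δ HSCs, a log2 fold change of 0.42 ± 0.15 that was 0.24 without Id2Δ/Δ replicate 2. *Rccd1*, which overlaps *Prc1* on the other strand, was at 6.3 and 6.34 against 6.2 and 6.73. *Anln*, for the contractile ring scaffold anillin, was at 4.16 and 4.80 against 4.86 and 5.25, a log2 fold change of 0.57 ± 0.26 that was 0.25 without Id2+/+ replicate 1 and 0.89 without Id2+/+ replicate 2. The centralspindlin subunit *Racgap1* and *Ect2*, which it brings to the cell equator to activate RhoA, were below 0. *Ect2* was at 4.89 and 5.24 against 4.83 and 5.05, a log2 fold change of -0.12 ± 0.20 (95% interval -0.59 to 0.35), and *Racgap1* at 6.20 and 6.16 against 5.95 and 6.28, a log2 fold change of -0.06 ± 0.16. For both the libraries overlapped and the sign turned when a library was left out.

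The transcription factors of this programme also differed from each other. *Foxm1* was at 4.65 and 5.29 log2 CPM in Id2+/+ and at 5.23 and 5.63 in Id2Δ/Δ HSCs, a log2 fold change of 0.46 ± 0.25 with overlap that was 0.14 without Id2+/+ replicate 1. *Mybl2* (B-MYB) was at 5.06 and 5.44 against 5.20 and 5.26, a log2 fold change of -0.02 ± 0.19 with overlapping libraries. Sorted by promoter letters, the members had close medians, and the median log2 fold change was 0.31 for 26 genes with TTTGAA and 0.30 for 13 without, and 0.34 for 30 with CCAAT and 0.26 for 9 without.

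**Figure D2:**
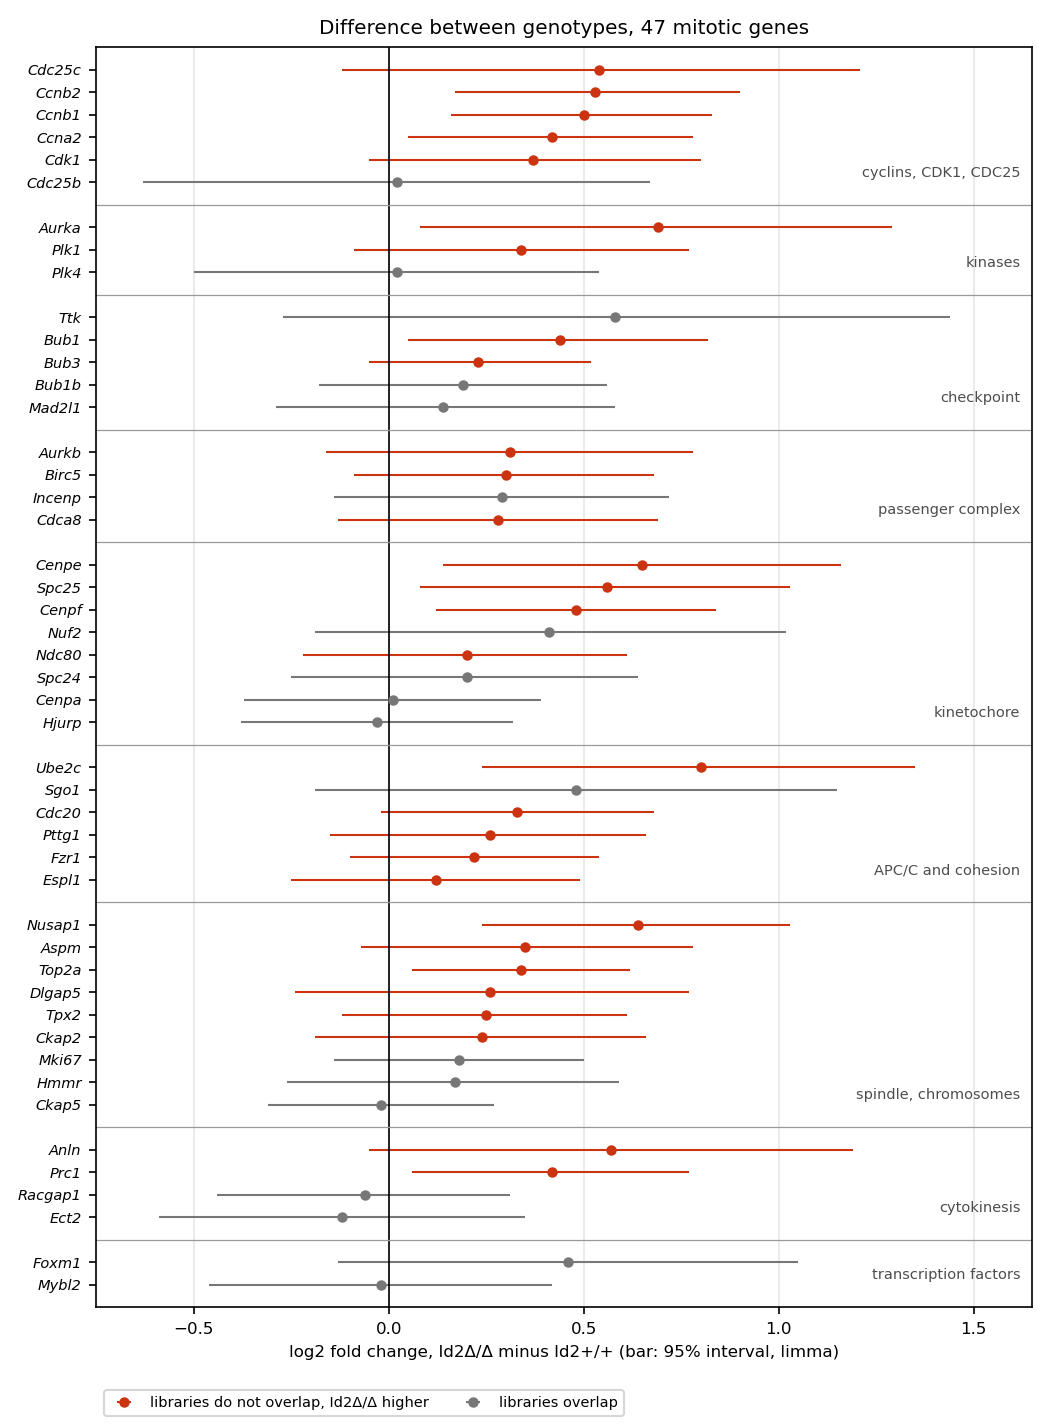
Log2 fold change of each mitotic gene (x axis, Id2Δ/Δ minus Id2+/+, point) with its 95% interval from limma (bar), grouped by role and ordered by size. Red marks the 29 genes whose libraries do not overlap, and 12 intervals, those of the genes with an unadjusted p under 0.05, lie above 0.

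Each Id2Δ/Δ library was also set against the controls alone. Replicate 1 lay above both controls in 35 of the 47 genes and below both in 7, against 40.1% and 36.9% of all genes tested. Replicate 2 lay above both in 39 and below both in 1, against 37.5% and 32.9% of all genes. The highest library was Id2Δ/Δ replicate 2 for 25 genes, Id2Δ/Δ replicate 1 for 20 and Id2+/+ replicate 2 for 2. The lowest library was Id2+/+ replicate 1 for 26 genes, Id2+/+ replicate 2 for 13, Id2Δ/Δ replicate 1 for 7 and Id2Δ/Δ replicate 2 for 1. The highest and lowest libraries were not counted over all genes. Between the controls, replicate 2 minus replicate 1 had a median of 0.07 over the 47. Set against Id2+/+ replicate 1 the median differences were 0.34 for either Id2Δ/Δ library, and against Id2+/+ replicate 2 they were 0.23 and 0.31. Of the 42 genes above 0, 31 were lower by more than 1.5 times in at least 1 leave-one-out fit, as were 18 of the 29 without overlap. This held for 15 genes without Id2+/+ replicate 1 and 2 without Id2+/+ replicate 2, and for 11 and 15 without Id2Δ/Δ replicates 1 and 2. The gap between replicates had a median of 0.28 for Id2Δ/Δ and 0.19 for Id2+/+ libraries over these genes, and of 0.29 and 0.19 over all genes tested.

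Other genes of mitosis, from lists that hold none of the 47, were also mostly above 0. Over 92 genes in 5 lists, 67 were above 0 (72.8%), against 51.7% of all genes tested, and the median log2 fold change was 0.12. On the higher side 30 did not overlap (32.6%), against 19.0% of all genes, and on the lower side 7, against 15.8%. None of the 92 had an adjusted p under 0.05 in limma. Without adjustment 2 had a p under 0.05, both higher, against 1.72% of all genes higher and 2.95% lower. Genes of the spindle pole and cytokinesis (23) and of mitotic entry and checkpoint regulation (16) had medians of 0.18 and 0.15, the remaining kinetochore genes (30) of 0.10, the APC/C subunits (14) of 0.08 and the DREAM and MuvB subunits (9) of 0.07. These medians were not tested against each other.
Within those lists the extremes were as follows. *Nek2*, a centrosome kinase, had the highest log2 fold change, 0.76 ± 0.33, with 2.27 and 2.78 log2 CPM in Id2+/+ and 3.40 and 3.18 in Id2Δ/Δ HSCs, and *Wee1*, whose kinase holds CDK1 inactive, stood lowest in its list at -0.19 ± 0.14. *Cdca3*, a trigger of WEE1 degradation, had 0.55 ± 0.24, and *Cep192*, a scaffold of the centrosome, -0.29 ± 0.13. Among kinetochore genes *Ska1* had 0.52 and its complex partner *Ska3* -0.27. The APC/C subunits ranged from -0.22 for *Anapc4* to 0.45 for *Anapc10*, and the MuvB and DREAM genes from -0.18 for *Lin37* to 0.24 for *Lin54*.

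Beside them stood 2 neighbouring sets. For 14 mitotic kinesins the median log2 fold change was 0.23, with 12 above 0 and 7 without overlap on the higher side, from -0.07 for *Kif18a* to 0.69 for *Kif14*, which acts in cytokinesis. For 46 genes of replication origins and forks the median was 0.11, with 33 above 0 and 12 without overlap on the higher side (26.1%), from -0.24 for *Orc1*, of the origin recognition complex, to 0.64 for *Mcm10*, a replication initiation factor. Of all genes tested, 51.7% were above 0 and 19.0% did not overlap on the higher side. On the lower side 0 of the kinesins and 1 of the replication genes did not overlap, against 15.8% of all genes. The differences between these lists, and between each list and all genes, were not tested.

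**Figure D3:**
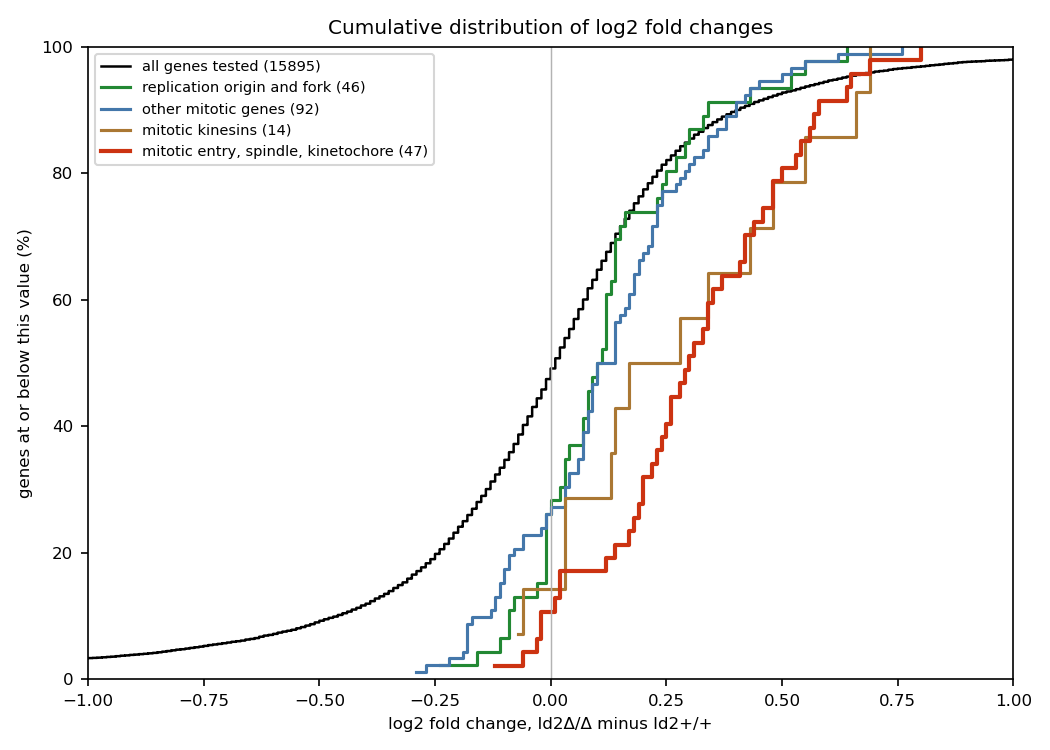
Cumulative share of genes (y axis, %) at or below each log2 fold change (x axis, Id2Δ/Δ minus Id2+/+, drawn from -1 to 1) for the 47 mitotic genes, 92 other mitotic genes, 14 mitotic kinesins, 46 replication genes and all 15895 genes tested. The curve of the 47 genes runs to the right of that of all genes over most of its range, with medians of 0.30 and 0.01.

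Transcript length moved with genotype over all genes. Split by the longest annotated transcript into 5 groups of nearly equal size, all genes tested had medians from 0.11 in the shortest to -0.09 in the longest group. The 47 genes had 0 members in the shortest group and 9, 11, 18 and 9 in the next ones, with medians of 0.34, 0.30, 0.24 and 0.18 against 0.05, 0.02, -0.01 and -0.09 over all genes. With each library corrected for length the median of the 47 was 0.32, and 45 of them were above 0, with *Ect2* and *Racgap1* at -0.09 and -0.02.

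**Figure D4:**
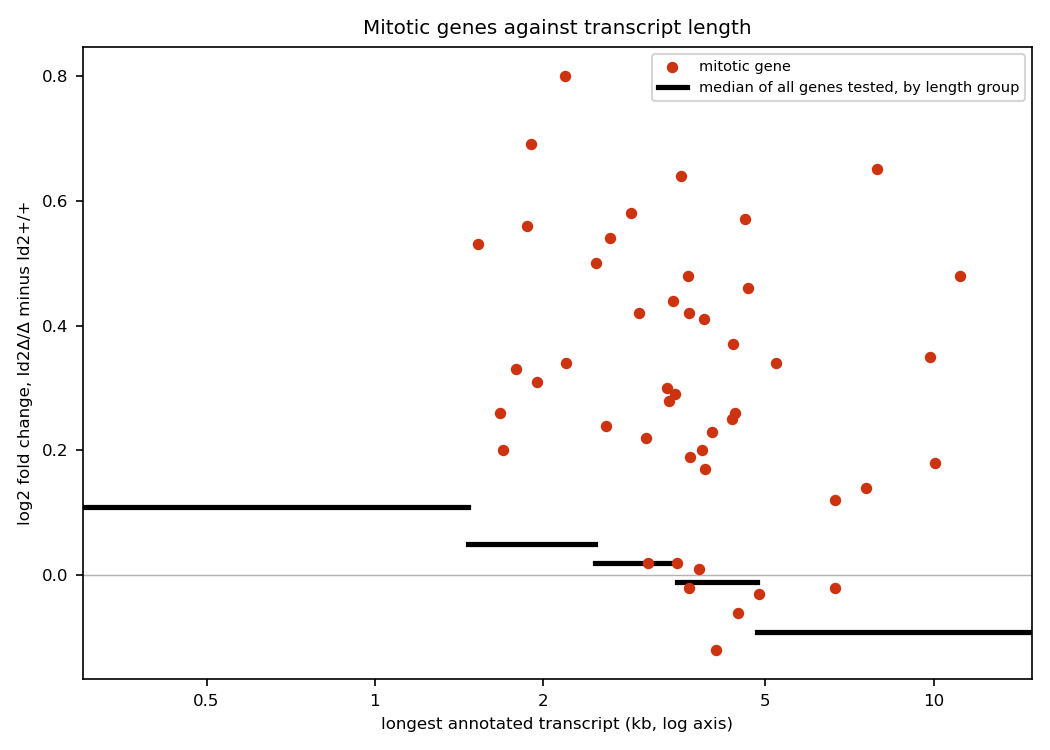
Log2 fold change (y axis, Id2Δ/Δ minus Id2+/+) of the 47 mitotic genes (points) against the length of the longest annotated transcript (x axis, kb, log scale), with the median of all genes tested in each of 5 length groups (black bars, outermost ones drawn to the axis limits). The bars fall from 0.11 to -0.09, and most points lie above the bar of their length.

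Markers of other cells that the sort could hold were read in the same libraries, as sums of CPM in the order of the libraries. Neutrophil and promyelocyte markers (12) summed to 286 and 172 in Id2+/+ and to 264 and 145 in Id2Δ/Δ libraries, with *Prtn3* the most abundant. Single genes went both ways, 4 of the 10 tested being higher and 6 lower. *Elane* had 47 and 22 reads against 143 and 52, and *Ctsg*, too low to be tested, 1 and 4 against 23 and 26. *Camp* had 152 and 47 against 83 and 7, and *Retnlg*, also not tested, 28 and 11 against 0 and 0. Erythroid markers (11 of 12 listed) summed to 2040 and 1920 against 1920 and 1800, most of it *Car2*. The mean of *Car2* was 1830 CPM, against 25.7 for *Aqp1*, the next highest, 5.65 for *Klf1* and 1.09 for *Hba-a1*. The sum therefore says little of the other erythroid genes. Of the 9 tested, *Car2* among them, 4 were higher and 5 lower. The megakaryocyte sum (9 of 10 listed) was 543 and 610 against 618 and 694, the monocyte sum (8 of 9) 61.1 and 50.8 against 58.6 and 50.8, the B-cell sum (3 of 9) 36.8 and 40.8 against 54.0 and 37.7, and the T- and NK-cell sum (2 of 9) 55.2 and 44.1 against 58.9 and 43.1. Of these sums the megakaryocyte one was higher in both Id2Δ/Δ libraries. Of its 9 genes 6 were higher and 3 lower. Without overlap 4 were higher, against 19.0% of all genes, and 1 was lower, against 15.8%. *Pf4* and *Gp1bb* had log2 fold changes of 0.65 ± 0.21 and 0.75 ± 0.27, the more abundant *Itga2b* and *Vwf* 0.06 and 0.0, and *Ppbp* -0.39 ± 0.42. The part of these other cells in the mitotic values was not tested. The 10 HSC markers summed to 4590 and 4490 against 3150 and 3720. The most abundant of them was *Kit*, with a log2 fold change of -0.63 ± 0.13 without overlap. Of the 10, 7 had a log2 fold change below 0, as had 7673 of the 15895 genes tested. On the lower side 5 did not overlap, against 15.8% of all genes, and on the higher side 1, against 19.0%. The unadjusted p from limma was under 0.05 for 4, all lower, against 2.95% of all genes lower. The progenitor genes *Flt3* and *Cd48*, whose proteins the gate excludes, and *Cd34*, which the gate did not use, summed to 429 and 371 against 406 and 367. Most of that sum was *Cd34*, with a mean of 341 CPM, against 48.2 for *Flt3* and 4.62 for *Cd48*.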

How the data were processed

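RNA of pooled, sorted HSCs was measured by RNA-Seq in 2 Id2+/+ and 2 Id2Δ/Δ libraries. The authors deposited log2 CPM values for 19354 genes in 4 columns. The unit was read from the values: taken back from log2 the columns sum to 999980 to 999996, and once each is sorted they lie within 0.1 of each other at 88.4% of ranks, as quantile normalization leaves them. The submitters' processing notes name CASAVA 1.8.4, Trimmomatic 0.30, TopHat2 2.0.8, RSEM and STAR, and the builds mm9 and NCBIM37, with no role or order. The gene filter, strand use and treatment of reads shared between near-identical copies are not given in the sources used here, and 12 members overlap a listed gene on the other strand. Reads below 32 CPM were recovered as the rank of distinct values, which also gave the depths. The 95% intervals are those of limma and rest on the spread between libraries, while the floor of 3 reads for *Id2* covers counting error only.

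Genes whose mean reached 1 CPM were tested on the deposited log2 values, with no pseudocount, by limma 3.58.1 in R 4.3.3 (lmFit, eBayes with a trend, two-sided). The fit and the read recovery were tested on simulated data. GENCODE M21 (GRCm38) gave lengths and coordinates, by identifier, for 99.7% of genes, and the length correction removed a natural spline with 5 degrees of freedom from each library. The members and lists were chosen with earlier results of these data known. Values per library are given for *Ccnb1*, *Ccnb2*, *Cdk1*, *Mki67*, members with an unadjusted p under 0.05, in each role the one with the largest positive change without overlap, and the 5 lowest. *Cdc25b*, *Ttk*, *Cenpa*, *Sgo1* and *Foxm1* were added after their values were seen. Of the other lists the extreme genes are named. Alternatives were a pseudocount of 1 or 5 CPM, median-ratio rescaling, no filter or one at 10 CPM, no trend, the replicate block, the length correction, other thresholds and leaving out each library.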

Additional observations from a re-analysis of the deposited data

How the results depend on the processing

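No alternative called a member at an adjusted p under 0.05 or, with the looser threshold, under 0.1. The count of members at an unadjusted p under 0.05, 12 as reported, was 5 without the trend on mean level and 4 when a change of at least 1.5-fold was also required. Leaving out each library in turn gave 3 to 14 such members, 3 without Id2+/+ replicate 1. Members whose remaining Id2Δ/Δ libraries all lay below the remaining controls, 0 with all 4 libraries, numbered 0 to 7 in those fits. They were 7 where Id2Δ/Δ replicate 1 stood alone and 1 where replicate 2 did, against 36.9% and 32.9% of all genes tested. Without Id2+/+ replicate 1 they were 2, for which the share of all genes was not counted. Members whose remaining Id2Δ/Δ libraries all lay above the remaining controls, 29 with all 4 libraries, numbered 30 to 39. They were 35 and 39 where Id2Δ/Δ replicates 1 and 2 stood alone, against 40.1% and 37.5% of all genes. The median log2 fold change of the 47 genes was 0.28 to 0.32 under the other settings and 0.24 to 0.33 with a library left out. The labels do not say that a replicate number pairs libraries, and libraries of the same number deviated from their group means with a correlation of 0.0592 over all tested genes and 0.144 over the 7377 above 32 CPM. With the replicate block 14 members had an unadjusted p under 0.05, and 17 with the length correction as well, against 12 and 15 without the block. The share of all genes at that threshold was not counted under these settings or in the leave-one-out fits. Changes in the count of members therefore cannot be set against it. Of 22 members followed one by one under 9 settings, 192 of 198 values kept their sign. The 6 that did not were *Hjurp*, *Ckap5* and *Mybl2* at 0.026, 0.078 and 0.0046, the same with the length correction alone and with the block as well. With a library left out, *Hjurp* ranged from -0.25 to 0.19, *Ckap5* from -0.11 to 0.065, *Mybl2* from -0.21 to 0.17, *Ect2* from -0.30 to 0.054 and *Racgap1* from -0.23 to 0.10. The cause of these changes was not tested.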
